A study of Rattus norvegicus with 8 samples.

Results

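Glucose uptake and glycolysis were followed here through 10 genes, chosen by name to cover the route from the glucose carrier of the cell membrane to lactate export: Slc2a1, Hk2, Hk3, Pfkl, Pfkp, Aldoa, Pgk1, Eno1, Ldha and Slc16a3. All 10 were found, each once, among the 32623 genes listed for the outflow veins of rat arteriovenous fistulas (AVFs). An AVF joins an artery to a vein so that the vein carries arterial flow. In Sprague Dawley rats of both sexes the epigastric vein had been joined to the femoral artery, and a bilayer nanofiber scaffold of PLA and PLGA had been wrapped around the vein next to the junction. The scaffold carried β-aminopropionitrile (BAPN), which blocks lysyl oxidases, the enzymes that crosslink collagen and elastin, or no drug (vehicle). The rats carried no genetic modification in the labels, which also give no age. The veins were taken at day 21 from 4 rats with BAPN scaffolds (3 females and 1 male) and 4 with vehicle scaffolds (2 females and 2 males), so every vein compared here had both an AVF and a scaffold. A vein without either was not analysed here. Each vein gave 1 library of total RNA depleted of ribosomal RNA, and nothing in the labels pairs the rats.

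Glycolysis splits glucose into pyruvate in the cytosol and yields ATP without oxygen. Hexokinases trap glucose as glucose 6-phosphate, phosphofructokinase sets the committed step, and lactate dehydrogenase turns pyruvate into lactate so that the route can go on. Activated macrophages, proliferating smooth muscle cells and cells short of oxygen are known for a high use of this route. Hypoxia-inducible factor, a transcription factor stabilized at low oxygen, is known to switch on many of its genes.

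The total count per library ran from 45039451 to 52241007 in the BAPN group and from 19548203 to 22442050 in the vehicle group. The shallowest BAPN library held 2.01 times the counts of the deepest vehicle library, so treatment and anything in the making of the libraries that went with depth cannot be told apart. Levels are given as CPM, counts per 1e+06 after TMM scaling, and serve only to compare one gene between rats, since they are not corrected for gene length. Fold changes are log2 of BAPN over vehicle from the quasi-likelihood test of edgeR, adjusted by Benjamini-Hochberg (FDR) over the 11682 genes whose base mean reached 100, and a gene was called below an FDR of 0.05. Standard errors (SE) and 95% intervals come from limma-voom. Ratios of 2 genes within a library were compared by an exact two-sided permutation test over the 70 arrangements of 4 rats against 4, which cannot go below p = 0.0286, and over fewer arrangements with females alone.

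All 10 genes had a higher fitted mean with BAPN, from 0.20 to 1.00 on the log2 scale with a median of 0.59, against a median of 0.02 over all tested genes, and 7 of them turned below 0 with females alone. Of the 10, 2 passed the test, Pgk1 and Ldha, and none was called lower. Over all tested genes 16.8% were called, 7.5% higher and 9.25% lower with BAPN. In 3 of the 10, Pgk1, Eno1 and Ldha, the BAPN and vehicle rats did not overlap, against 24.7% of all tested genes. DESeq2 called the same 3 genes, where it called 27.4% of all tested genes. The other 7 genes overlapped between the groups and passed neither test. Counts of the 10 genes ran from 701 to 73950 per library, so that counting error was small beside the spread between rats.

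**Figure D1:**
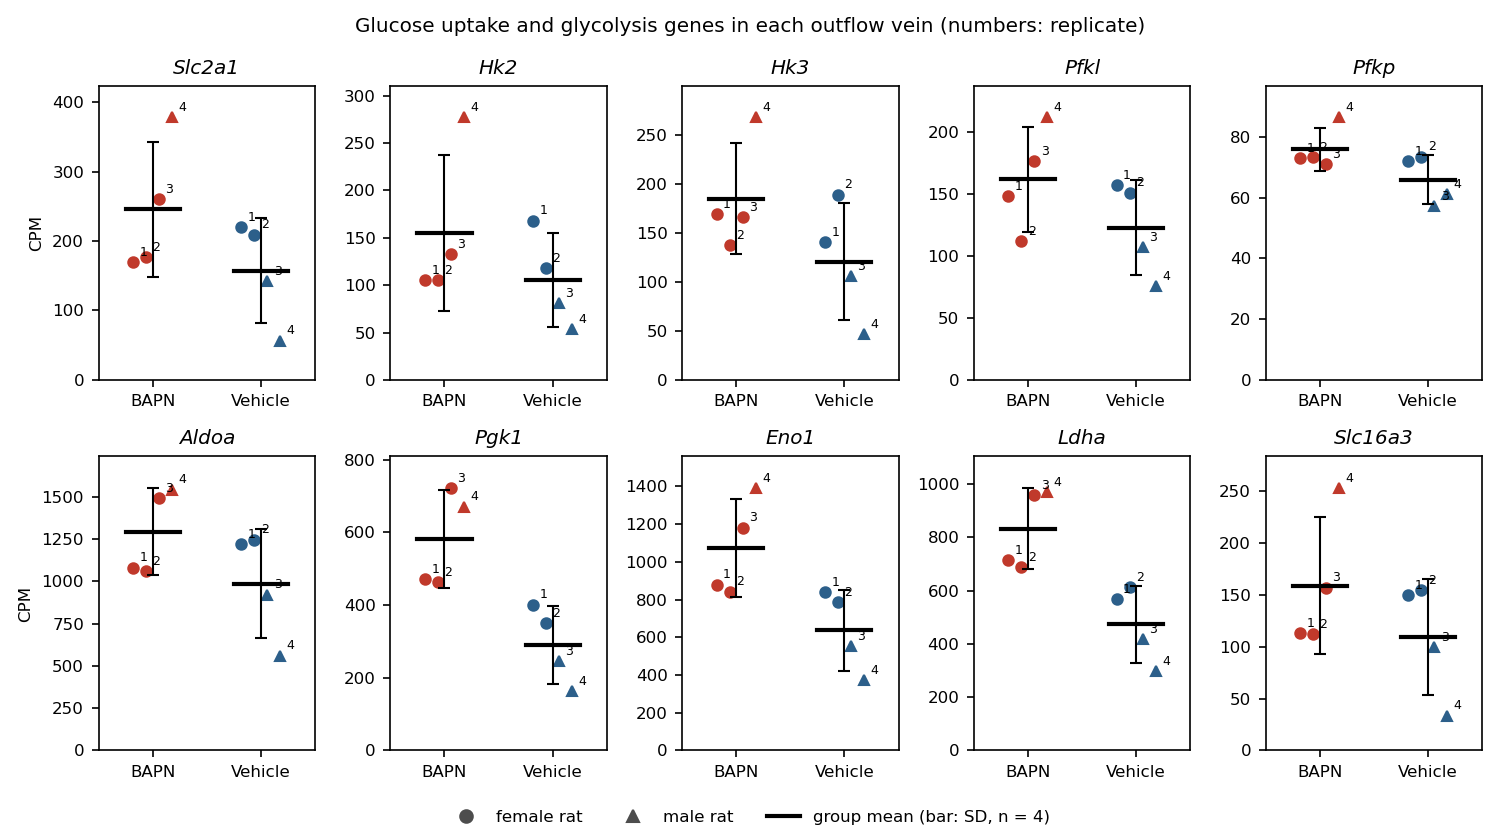
Level of each gene in CPM (vertical axis, from 0) in the 4 BAPN and the 4 vehicle rats, with circles for females, triangles for males, the replicate number beside each point, and the group mean with its SD (n = 4). Pgk1, Eno1 and Ldha are the 3 genes in which every BAPN rat lies above every vehicle rat, and BAPN 4 and Vehicle 4 hold the extremes of most genes.

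Glucose enters most cells through Slc2a1 (ENSRNOG00000007284), which encodes the carrier GLUT1. Slc2a1 was at 169, 177, 259.9 and 378 CPM in BAPN 1 to 4 and at 221, 209, 142 and 56.7 CPM in Vehicle 1 to 4. BAPN 4 was highest and Vehicle 4 lowest, and BAPN 1 and 2 lay below Vehicle 1 and 2. The mean was 246 ± 97.1 CPM in the BAPN rats against 157 ± 75.4 CPM in the vehicle rats (SD, n = 4), a log2 fold change of 0.65 (SE 0.46), which edgeR did not call (FDR 0.281). The interval ran from -0.28 to 1.78.

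Slc2a1 stood among 7 other tested glucose transporter genes, of which 0 were called higher and 1 was called lower. The gene that fell was Slc2a4, which encodes GLUT4, the carrier that insulin recruits in muscle and fat. It averaged 3.99 ± 1.29 CPM in the BAPN rats against 12.7 ± 3.30 CPM in the vehicle rats, a log2 fold change of -1.67 (SE 0.32, edgeR FDR 0.0139), and no BAPN rat reached the lowest vehicle rat. The call on Slc2a4 held in all 8 fits that left out 1 library and was lost with females alone (FDR 0.0964). Fat and muscle cells express Slc2a4, and in the same comparison 6 of 9 smooth muscle markers and 1 of 5 adipocyte markers were called lower, with sums given further on. Their part in this value was not tested. Slc2a3, which encodes the high-affinity carrier GLUT3, was listed at 0 in 7 libraries and at 1 count in Vehicle 3. Slc2a3 was therefore not tested, and its listed counts were not read as its expression. A ratio of Slc2a1 to Slc2a3, though computed, is not given.

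Hexokinases phosphorylate glucose and so keep it in the cell. Hk2 (ENSRNOG00000006116), the inducible form bound to mitochondria, was at 105, 106, 133 and 277 CPM in BAPN 1 to 4 and at 168, 118, 80.8 and 53.6 CPM in Vehicle 1 to 4. The BAPN mean rested on BAPN 4, since the other 3 BAPN rats lay within the range of the vehicle rats. Hk2 gave a log2 fold change of 0.56 (SE 0.40, edgeR FDR 0.336) with all rats and 0.12 without BAPN 4. Hk3 (ENSRNOG00000026235), a form found mainly in myeloid cells, was at 169, 137, 166 and 267 CPM in BAPN 1 to 4 and at 140.2, 189, 106 and 46.8 CPM in Vehicle 1 to 4. Vehicle 2 lay above 3 of the BAPN rats, and Hk3 had a log2 fold change of 0.62 (SE 0.42, edgeR FDR 0.261). Hk1, the form most tissues use at rest, averaged 80.8 ± 9.24 CPM in the BAPN rats against 81.7 ± 17.0 CPM in the vehicle rats, with a log2 fold change of -0.01 (SE 0.17, edgeR FDR 0.958) whose sign turned under 7 of the other settings tried. Within a library, the log2 ratio of Hk2 to Hk1 was 0.56 higher with BAPN (exact permutation test, p = 0.486), and 0.19 higher without BAPN 4 or 0.20 without Vehicle 4. That of Hk3 to Hk1 was 0.74 higher (exact permutation test, p = 0.286). Neither ratio separated the groups.

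Phosphofructokinase commits the sugar to glycolysis and is built from a liver (Pfkl), a platelet (Pfkp) and a muscle (Pfkm) subunit. Pfkl (ENSRNOG00000001214) was at 148, 112, 176 and 212 CPM in BAPN 1 to 4 and at 157, 151, 107 and 75.5 CPM in Vehicle 1 to 4. The groups overlapped, with BAPN 2 below 2 of the vehicle rats, and the log2 fold change was 0.40 (SE 0.27, edgeR FDR 0.295). Pfkp (ENSRNOG00000017163) varied least of the 10 genes, at 73.2, 73.3, 71.0 and 86.5 CPM in BAPN 1 to 4 and at 72.1, 73.5, 57.3 and 61.1 CPM in Vehicle 1 to 4, with a log2 fold change of 0.20 (SE 0.12, edgeR FDR 0.239). The muscle subunit moved the other way. Pfkm fell, from 28.1 ± 7.09 CPM in the vehicle rats to 17.5 ± 2.01 CPM in the BAPN rats, a log2 fold change of -0.68 (SE 0.18, edgeR FDR 0.0373). This call was kept in 1 of the 8 fits that left out a library, the one without Vehicle 2.

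The balance of the subunits can be read within each library, where scaling plays no part. The log2 ratio of Pfkp to Pfkm was 1.92, 1.94, 2.16 and 2.47 in BAPN rats 1 to 4 and 1.39, 1.85, 1.09 and 0.71 in Vehicle 1 to 4. Every BAPN rat lay above every vehicle rat, and the mean difference of 0.86 gave p = 0.0286 in the exact permutation test, which is 0.114 after adjustment over the 8 ratios that could be read. The other 2 of the 10 ratios computed, Slc2a1 to Slc2a3 and Eno1 to Eno2, had a denominator under 100 counts in some library. Leaving them out was decided after the values were seen, and over all 10 the adjusted p was 0.0952. For Pfkl over Pfkm the difference was 1.08 (exact permutation test, p = 0.0571, adjusted over 8 ratios 0.152 and over 10 ratios 0.143), with an overlap between the groups. In the 5 females the difference of Pfkp over Pfkm was 0.38 and that of Pfkl over Pfkm was 0.28, with exact permutation p of 0.1 and 0.4. Muscle is known for its use of Pfkm, and 6 of 9 smooth muscle markers were called lower with BAPN. Their part in these ratios was not tested.

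Aldolase splits the 6-carbon sugar. Aldoa (ENSRNOG00000052802) was at 1082, 1061, 1490.4 and 1544 CPM in BAPN 1 to 4 and at 1219, 1246, 922 and 561 CPM in Vehicle 1 to 4. BAPN 3 and BAPN 4 lay above all vehicle rats, while BAPN 1 and BAPN 2 lay between them, and the log2 fold change was 0.39 (SE 0.29, edgeR FDR 0.314). The ratio of Aldoa to Aldoc, the brain form, differed by -0.10 on the log2 scale (exact permutation test, p = 0.6). This difference was -0.28 with females alone (exact permutation test, p = 0.1). It was -0.27 without Vehicle 4 (exact permutation test, unadjusted p = 0.0286) and 0.04 without Vehicle 2. Tpi1, which encodes the next enzyme and is used by nearly every cell, held between 1 and 29 counts per library, so that its listed counts were not read as its expression.

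Pgk1 (ENSRNOG00000058249) encodes phosphoglycerate kinase, the first ATP-forming step, and had the largest fold change of the 10 genes. It was at 470.3, 464, 722 and 671 CPM in BAPN 1 to 4 and at 401, 349.7, 246 and 163 CPM in Vehicle 1 to 4. All BAPN rats were above all vehicle rats, with BAPN 2 nearest to Vehicle 1. Pgk1 rose from a mean of 289.9 ± 106 CPM to 582 ± 134 CPM (SD, n = 4), or 2.01-fold, with a log2 fold change of 1.00 (SE 0.31, interval 0.36 to 1.76) and an edgeR FDR of 0.0419. The call was close to the threshold. It held in 1 of the 8 fits that left out a library, the one without Vehicle 2, with FDRs from 0.0438 to 0.109 and log2 fold changes from 0.81 to 1.20 over the 8. It was also lost with sex as a covariate (FDR 0.0657).

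Eno1 (ENSRNOG00000017895) encodes enolase 1, which forms phosphoenolpyruvate. Eno1 was at 879.6, 842, 1181 and 1391 CPM in BAPN 1 to 4 and at 838, 787, 552 and 373 CPM in Vehicle 1 to 4. The groups did not overlap, although BAPN 2 exceeded Vehicle 1 by a few CPM. Its log2 fold change of 0.75 (SE 0.30) was not called by edgeR (FDR 0.0880) and was called by DESeq2 (FDR 0.0321). The neuronal form Eno2 held between 1 and 42 counts per library, too few to read a ratio between groups of different depth.

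Ldha (ENSRNOG00000013009) encodes the A subunit of lactate dehydrogenase, the form that favours making lactate. Ldha was at 715, 689, 959 and 971 CPM in BAPN 1 to 4 and at 568, 612, 418 and 297 CPM in Vehicle 1 to 4. All BAPN rats lay above all vehicle rats, and BAPN 3 and 4 lay well above BAPN 1 and 2. Ldha rose from 474 ± 144 CPM to 834 ± 152 CPM (SD, n = 4), or 1.76-fold, with a log2 fold change of 0.81 (SE 0.26, interval 0.27 to 1.44) and an edgeR FDR of 0.0488. This call also held in 1 of the 8 fits that left out a library, the one without Vehicle 2, with FDRs from 0.0342 to 0.119. It was lost with sex as a covariate (FDR 0.0785) and, by a small margin, with RLE scaling (FDR 0.0514).

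Ldhb encodes the B subunit, which favours turning lactate back into pyruvate, and averaged 10.7 ± 1.99 CPM in the BAPN rats against 17.0 ± 4.09 CPM in the vehicle rats (log2 fold change -0.66, SE 0.20, edgeR FDR 0.0547). The log2 ratio of Ldha to Ldhb was 6.11, 5.66, 6.60 and 6.74 in BAPN rats 1 to 4 and 4.65, 5.57, 4.74 and 4.14 in Vehicle 1 to 4. The groups did not overlap, with BAPN 2 and Vehicle 2 next to each other, and the mean difference was 1.5 (exact permutation test, p = 0.0286, adjusted over 8 ratios 0.114 and over 10 ratios 0.0952). It was 1.02 in the females alone (exact permutation test, p = 0.2).

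Slc16a3 (ENSRNOG00000036677) encodes MCT4, the carrier by which glycolytic cells export lactate. Slc16a3 was at 113, 112, 157 and 253 CPM in BAPN 1 to 4 and at 149.9, 155, 99.6 and 33.5 CPM in Vehicle 1 to 4. BAPN 1 and BAPN 2 lay below Vehicle 1 and Vehicle 2, Vehicle 4 was far lower than the others, and the log2 fold change was 0.54 (SE 0.50, edgeR FDR 0.400). The fold change was 0.21 without BAPN 4 and 0.24 without Vehicle 4. Slc16a1, which encodes the related carrier MCT1, averaged 52.1 ± 3.06 CPM in the BAPN rats against 37.6 ± 7.67 CPM in the vehicle rats (log2 fold change 0.47, SE 0.14, edgeR FDR 0.0542). The log2 ratio of Slc16a3 to Slc16a1 differed by 0.19 (exact permutation test, p = 0.714), and this ratio turned lower with BAPN without BAPN 4 or without Vehicle 4. Among the 4 other lactate carriers and partners tested, edgeR called 0, with 2 at an unadjusted p under 0.05, and DESeq2 called 2. Bsg, the chaperone that brings these carriers to the membrane, was at 418 ± 46.8 and 394 ± 27.9 CPM with BAPN and vehicle. Emb, a related chaperone, was at 134 ± 46.4 and 79.2 ± 20.8 CPM (edgeR FDR 0.0714).

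**Figure D2:**
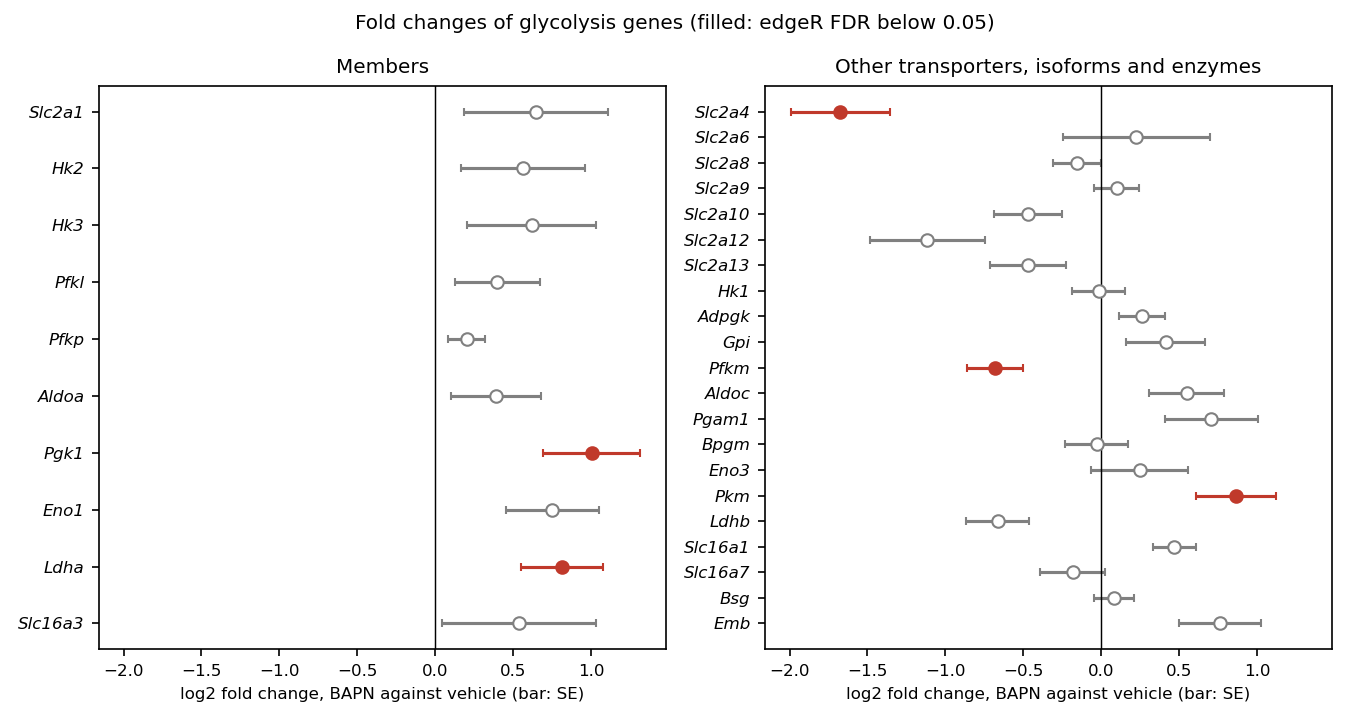
Log2 fold change of BAPN against vehicle (horizontal axis, point) with its SE (bar) for the 10 genes on the left and for the other tested glucose transporters, glycolytic isoforms and enzymes, and lactate carriers with their partners on the right, with filled red points for an edgeR FDR below 0.05. Pgk1 and Ldha are filled on the left, while Slc2a4 and Pfkm lie below 0 and Pkm above 0 as the filled points on the right.

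Among the 10 other tested isoforms and enzymes of glycolysis, 1 was called higher and 1, Pfkm, lower. Pkm, which encodes the pyruvate kinase of most adult tissues and of proliferating cells, catalyses the step between Eno1 and Ldha. Pkm was at 1126, 919, 1249 and 1398 CPM in BAPN 1 to 4 and at 790.0, 829, 528 and 429 CPM in Vehicle 1 to 4. No BAPN rat overlapped a vehicle rat, and the log2 fold change was 0.87 (SE 0.26, edgeR FDR 0.0407). The call on Pkm was kept in 2 of the 8 fits that left out a library, those without BAPN 2 and without Vehicle 2, and was lost with sex as a covariate (FDR 0.0678), with females alone (FDR 0.237) and with total counts only (FDR 0.0556). Pgam1, which acts between Pgk1 and Eno1, averaged 637 ± 119 CPM in the BAPN rats against 390.0 ± 134 CPM in the vehicle rats (log2 fold change 0.71, SE 0.30, edgeR FDR 0.0937). The calls in the later steps of the route thus fell on Pgk1, Pkm and Ldha. Pgam1, like Hk1, Aldoc, Ldhb, Slc16a1, Tpi1, Slc2a3 and Eno2, was named for its place beside a member and not for its value.

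Both rats at the extremes were male. BAPN 4 had the highest level of 9 of the 10 genes, and Vehicle 4 had the lowest of 9. The exceptions were Pgk1, highest in BAPN 3, and Pfkp, lowest in Vehicle 3. The 10 genes took 0.401, 0.379, 0.512 and 0.555% of all counts in BAPN rats 1 to 4 and 0.400, 0.403, 0.289 and 0.164% in Vehicle 1 to 4. BAPN 1 and 2 and Vehicle 1 and 2 were thus close to one another, and the difference of the group means (0.462 ± 0.0849% against 0.314 ± 0.113%, SD, n = 4) came from the high BAPN 3 and 4 and the low Vehicle 3 and 4.

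Since sex was unequal between the groups, the genes were also compared within each sex. In males, where 1 BAPN rat faced 2 vehicle rats, all 10 genes were higher in the BAPN rat than the mean of the vehicle rats, by 0.55 to 2.13 on the log2 CPM scale. In females, 3 BAPN rats against 2 vehicle rats, 3 genes were higher and 7 lower in mean log2 CPM. The 3 were Pgk1 with 0.53, Ldha with 0.40 and Eno1 with 0.24, and in each of them every BAPN female lay above every vehicle female. These 3 had already separated over all rats, so their females separate by necessity. The share of all tested genes that separate in females was not counted. For the 7 other genes the female differences ran from -0.30 for Hk2 to -0.01 for Pfkp. With females alone, edgeR gave Pgk1 a log2 fold change of 0.56 (FDR 0.218) and Ldha one of 0.42 (FDR 0.267), and called 0 of the 10 genes and 89 genes in all.

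A treatment by sex term, added after the values were seen, gave FDRs from 0.154 to 0.393 for the 10 genes. None passed, all 10 had an unadjusted p under 0.05, and edgeR called 0 of the 11682 genes by this term, with 1442 at an unadjusted p under 0.05. With 1 male in the BAPN group, sex and the single rat BAPN 4 cannot be told apart in this term. The 10 genes also rose and fell together within the groups (Pearson r above 0 in all 45 pairs, median 0.93). They are therefore not 10 separate results, here or in the counts given before. Leaving out BAPN 4 lowered the median log2 fold change of the 10 genes from 0.59 to 0.32, and leaving out Vehicle 4 lowered it to 0.35. In both cases 0 of the 10 were called, where 7.33% of all tested genes were called without BAPN 4 and 8.24% without Vehicle 4. Without BAPN 4 Pgk1 stood at 0.92 and Ldha at 0.72.

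**Figure D3:**
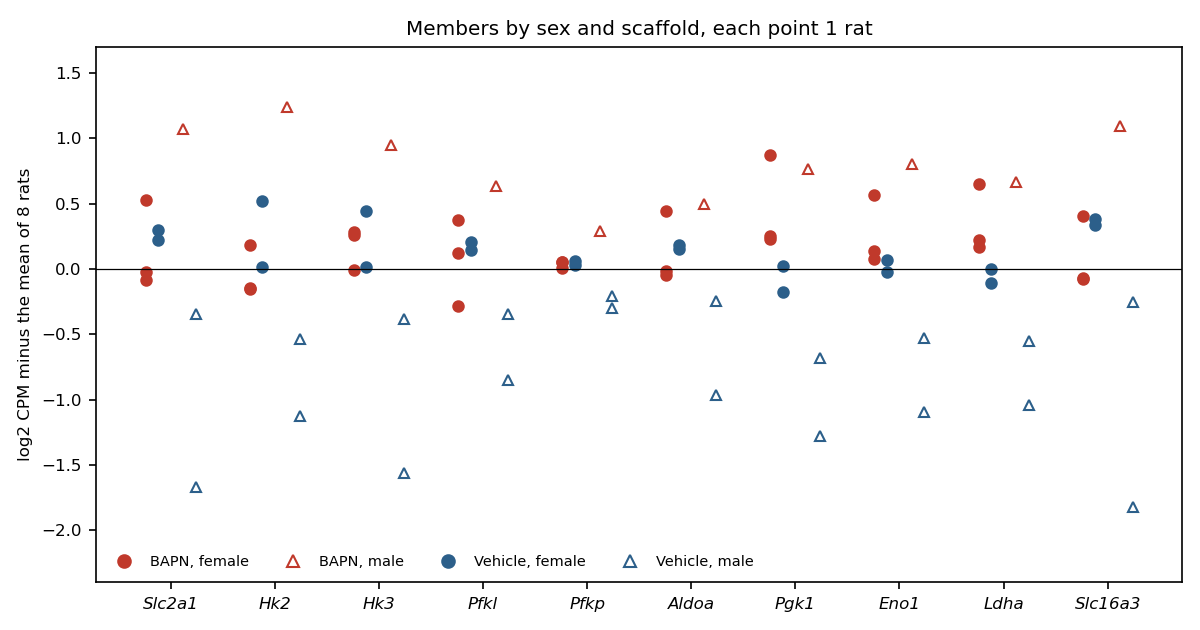
Log2 CPM of each gene in each rat minus the mean of the 8 rats (vertical axis), with filled circles for females and open triangles for males, in red for BAPN and in blue for vehicle. The BAPN male lies above both vehicle males in all 10 genes, by 0.55 to 2.13 over their mean. The females of both groups mix except in Pgk1, Eno1 and Ldha, the genes that separate over all 8 rats.

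The fate of pyruvate was followed through genes of its entry into mitochondria. Of 9 tested, 3 were called higher and 0 lower. Pdha1, a subunit of the pyruvate dehydrogenase that feeds the citric acid cycle, was at 182, 189, 189 and 205 CPM in BAPN 1 to 4 and at 141, 129, 112 and 123 CPM in Vehicle 1 to 4. The groups lay clearly apart, with little spread within each, and the log2 fold change was 0.60 (SE 0.11, edgeR FDR 0.0132). The call on Pdha1 held in all 8 fits that left out 1 library and was lost with females alone (FDR 0.111). Pdhx, which binds a further subunit to the complex, had a log2 fold change of 0.83 (edgeR FDR 0.0346), and Dld, its dihydrolipoamide dehydrogenase, one of 0.30 (edgeR FDR 0.0409). Pdhx kept its call in 2 of these 8 fits, those without BAPN 2 and without Vehicle 2, and Dld lost its call in all 8 fits that left out a library.

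Among 10 tested regulators of glycolytic flux, 0 were called higher and 2 lower, both of them kinases that switch pyruvate dehydrogenase off. Pdk2 fell from 28.9 ± 5.07 to 17.7 ± 1.73 CPM, a log2 fold change of -0.71 (SE 0.15, edgeR FDR 0.0190). Pdk4, the form induced by fasting and in muscle, fell from 7.50 ± 1.61 to 3.22 ± 0.927 CPM, a log2 fold change of -1.22 (SE 0.27, edgeR FDR 0.0228). The call on Pdk2 was lost without Vehicle 1 (FDR 0.0516) and that on Pdk4 without BAPN 1, BAPN 3, BAPN 4 or Vehicle 1, with FDRs up to 0.0671.

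The pentose phosphate pathway branches from glycolysis after the hexokinase step and makes NADPH and ribose. Of its 7 tested genes, 3 were called higher and 0 lower. Rpe and Rpia, which interconvert the 5-carbon sugars, had log2 fold changes of 0.45 (edgeR FDR 0.0255) and 0.41 (edgeR FDR 0.0429), and Taldo1, which returns carbon to glycolysis, one of 0.62 (edgeR FDR 0.0499). All of these were lost in most of the fits without 1 library: Rpe was kept in 3 of 8, without BAPN 1, Vehicle 2 or Vehicle 3, Rpia in 1, without BAPN 1, and Taldo1 in 1, without Vehicle 2.

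Glycogen metabolism had 13 tested genes and gluconeogenesis 6, and edgeR called 0 in both lists, with 4 and 1 genes at an unadjusted p under 0.05, where DESeq2 called 1 in each. The glycogen phosphorylase gene Pygl, which releases stored glucose, averaged 122 ± 30.4 CPM in the BAPN rats against 80.1 ± 32.9 CPM in the vehicle rats (edgeR FDR 0.192). Ugp2, which makes the glucose donor for glycogen, was at 90.6 ± 10.4 and 67.6 ± 10 CPM (edgeR FDR 0.0562). G6pc3 and Slc37a4, a phosphatase and the carrier that handle glucose 6-phosphate in the endoplasmic reticulum, had log2 fold changes of 0.03 and 0.17 (edgeR FDR 0.846 and 0.501). Pygl was also the tested gene whose level followed the mean of the 10 genes most closely across the 8 rats once each group's mean was removed, and the next were Psca, Tcf23, Slamf6 and Mthfs (Pearson r from 0.988 to 0.995 over 8 rats, given as a description with no test, since these values share libraries and scaling). EdgeR called 0 of these 5.

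The genes of oxygen sensing came next. Of 8 tested, 0 were called higher and 2 lower. Epas1, which encodes the oxygen-regulated factor HIF-2α and is abundant in endothelium, was at 375, 232, 322 and 462 CPM in Vehicle 1 to 4 and at 232, 179, 164 and 121 CPM in BAPN 1 to 4, a log2 fold change of -1.0 (SE 0.25, edgeR FDR 0.0286). Arnt, the partner that both oxygen-regulated factors need to bind DNA, had a log2 fold change of -0.70 (SE 0.19, edgeR FDR 0.0343). Both calls were kept in 2 of the 8 fits, those without BAPN 1 and without Vehicle 2. Hif1a was at 148 ± 35.2 and 159 ± 46.1 CPM with BAPN and vehicle (log2 fold change -0.10, edgeR FDR 0.765), and its protein, which oxygen controls, was not measured. Of 17 further genes known as targets of these factors, edgeR called 1 higher and 0 lower, and DESeq2 called 4. The median log2 fold change was 0.34, against 0.02 over all tested genes, with 15 of 17 above 0. In females the difference in mean log2 CPM was below 0 for Vegfa, Adm, Bnip3l, Ndrg1, Bhlhe40, Ero1a and Pdgfb, and above 0 for the rest. In males, 1 BAPN rat against 2 vehicle rats, all were above 0, from 0.23 for P4ha2 to 2.25 for Bnip3. The gene called by edgeR was Bnip3, which directs mitochondria to breakdown. It was at 66.5, 85.3, 144 and 193 CPM in BAPN 1 to 4 and at 72.8, 48.3, 54.4 and 29.9 CPM in Vehicle 1 to 4. BAPN 1 lay below Vehicle 1, so the groups overlapped, and the log2 fold change of 1.25 (SE 0.36, edgeR FDR 0.0435) was called in 1 of the 8 fits without a library, that without BAPN 1.

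Of the 14 called genes of the pathway lists, 5 kept their call with sex as a covariate, namely Slc2a4, Pdk2, Pdk4, Pdha1 and Rpe, and the other 9 lost it. All 14 lost it with females alone, and Pkm, Dld, Rpe, Rpia, Taldo1 and Bnip3 lost it with total counts only.

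The core to which hypoxia-inducible factors are known to bind is ACGTG or GCGTG. Both strands of RefSeq promoter windows on the rat build GRCr8, 250 bases before to 50 after each listed start, were searched for these letters. Windows were found for 9 of the 10 genes, 12 in all, and Pgk1 had none. Either core stood in the windows of 7 of the 9 genes, against 44.6% of 27457 genes, and in 8 of 12 windows, against 41.6% of 33469 windows. The genes behind these shares were not matched to the 10 for level or base composition, so no excess is read from them. ACGTG was in 5 of the 12 windows (19.3% of all) and GCGTG in 6 (29.7% of all), and in the Ldha window both a forward and a reverse ACGTG share letters. A stretch of 170 bases, from 160 before the start to 9 after it, is shown for 4 genes: Ldha, called and with the most cores, Slc2a1 and Eno1, which hold cores but were not called by edgeR, and Hk2, whose window holds none. Capitals mark the cores, which read CACGT or CACGC where they lie on the other strand.
Ldha promoter, chr1:106507932-106508101, + strand: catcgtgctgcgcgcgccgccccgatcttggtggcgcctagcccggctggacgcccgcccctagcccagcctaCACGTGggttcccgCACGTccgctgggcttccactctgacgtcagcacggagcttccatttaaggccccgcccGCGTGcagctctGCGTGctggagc
Slc2a1 promoter, chr5:138002362-138002531, + strand: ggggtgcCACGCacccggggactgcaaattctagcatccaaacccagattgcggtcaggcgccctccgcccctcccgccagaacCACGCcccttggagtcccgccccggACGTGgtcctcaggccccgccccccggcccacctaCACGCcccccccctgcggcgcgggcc
Eno1, second start, promoter, chr5:166003201-166003370, + strand: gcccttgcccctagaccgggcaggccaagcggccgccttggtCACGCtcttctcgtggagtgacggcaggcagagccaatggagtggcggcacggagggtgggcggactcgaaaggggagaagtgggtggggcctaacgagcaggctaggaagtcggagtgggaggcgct
Hk2 promoter, chr4:116841266-116841435, - strand: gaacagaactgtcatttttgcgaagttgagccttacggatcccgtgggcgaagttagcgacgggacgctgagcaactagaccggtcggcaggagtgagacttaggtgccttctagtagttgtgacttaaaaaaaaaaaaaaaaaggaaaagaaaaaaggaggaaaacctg
In the Ldha window the cores began 87, 86, 73, 14 and 2 bases before the start and 29 after it, the last outside the printed stretch. The second Eno1 window also held an ACGTG, on the other strand and 38 bases after the start, outside the printed stretch. A match shows the letters only, and the files hold no measurement of binding at these windows. The windows of Hk2 and Slc16a3 held neither core.

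Which cells the RNA came from was followed through marker lists, because in bulk tissue fewer cells of a type and less RNA per cell cannot be told apart. Of 12 macrophage and monocyte markers, all tested, 11 had a fold change above 0, with a median of 0.55 on the log2 scale, and edgeR called 1, Aif1, higher where DESeq2 called 4, Aif1, Cd14, Lyz2 and Fcer1g. Their summed level ran from 28966 to 42907 CPM with BAPN and from 6066 to 24141 CPM with vehicle, and the groups did not overlap. Lyz2, the lysozyme of macrophages, held most of the reads in the sum (31549 CPM in the BAPN rats against 12958 CPM in the vehicle rats on average, edgeR FDR 0.0720), and Cd68 and Csf1r were not called. Vehicle 4, lowest in 9 of the 10 glycolytic genes, also had the lowest macrophage sum, and BAPN 3 and 4 had the highest. Single markers differed in this order. Cd68 was highest in BAPN 4 and lowest in Vehicle 4. From BAPN 1 to BAPN 4, however, Adgre1 fell from 183 to 86.7 CPM, Cd163 from 123 to 26.4 CPM and Mrc1 from 378 to 172 CPM. In none of these was Vehicle 4 the lowest vehicle rat. The part of macrophages in the glycolytic genes was not tested.

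Smooth muscle markers went the other way. Of 9, all were below 0 (median -1.29) and 6 were called lower, with sums from 1674 to 4271 CPM with BAPN and from 3353 to 6101 CPM with vehicle. Myh11, a defining contractile gene, was called (edgeR FDR 0.0148), while Tagln and Acta2 were not (edgeR FDR 0.217 and 0.260). Vehicle 4 had the highest sum, and BAPN 3 and 4 the lowest. Endothelial markers, among them Tie1, Vwf and Cdh5, had 2 of 7 called lower by edgeR (3 called by DESeq2) and sums from 466 to 623 CPM with BAPN and from 759 to 1515 CPM with vehicle. Fibroblast markers, among them Dcn, Gsn and Lum, had 2 of 8 called lower by edgeR (4 called by DESeq2), with sums from 4280 to 5963 and from 6405 to 8801 CPM. Smooth muscle and endothelial markers were thus present in every library, which the labelled vein is known to hold.

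**Figure D4:**
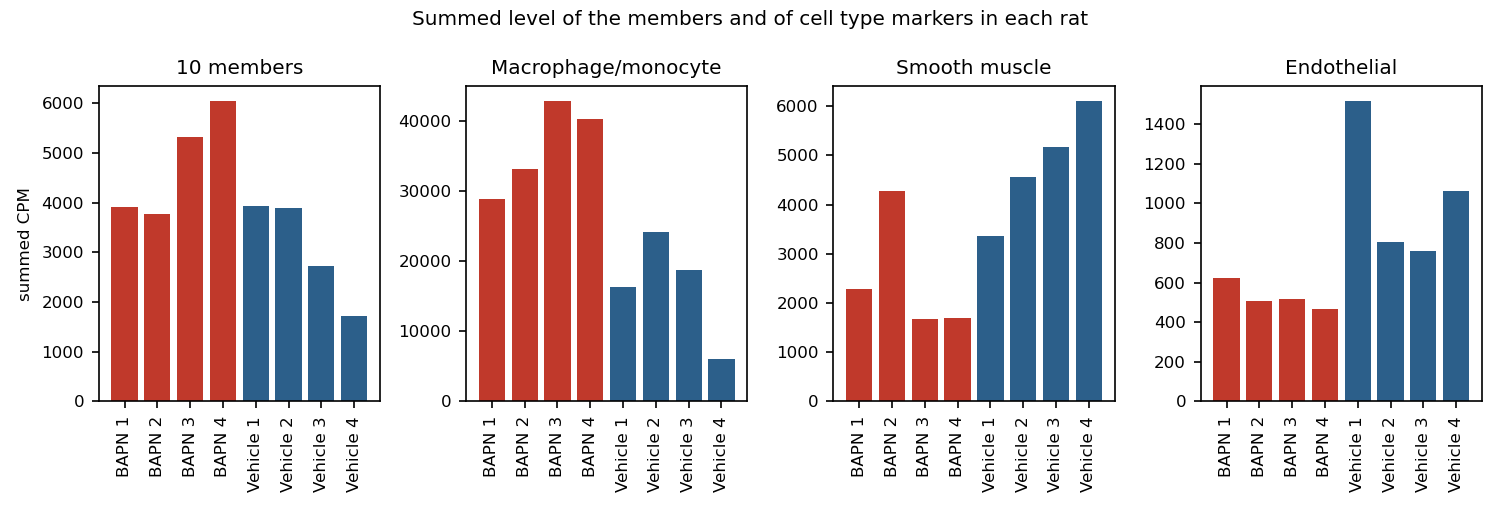
Summed CPM (vertical axes, from 0) of the 10 glycolytic genes and of the macrophage and monocyte, smooth muscle and endothelial markers in each of the 8 rats, red for BAPN and blue for vehicle. BAPN 3 and 4 are highest and Vehicle 4 lowest in the first 2 panels, and Vehicle 4 is highest in the third. Most of the macrophage and monocyte sum is Lyz2.

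Other cell types were less even. T cell markers had 7 of 8 fold changes above 0, with a median of 1.17 on the log2 scale, and 2 called higher by edgeR (Cd8a and Cd2) and 4 by DESeq2. Their sums overlapped, from 374 to 458 CPM with BAPN and from 303 to 515 CPM with vehicle, with most of these reads on Cd4, which rat macrophages also express. The B cell list had 1 tested gene of 6, Cd79b, which was called higher, with sums up to 32.8 CPM with BAPN and up to 10.6 CPM with vehicle. Of 8 neutrophil markers 3 were tested and 0 called by either tool (1 at an unadjusted edgeR p under 0.05), with Elane at or near 0 and sums from 135 to 201 and from 95.2 to 150.3 CPM. Adipocyte markers summed to between 1064 and 2927 CPM with BAPN and to between 438 and 1707 CPM with vehicle, with nearly all of these reads on Fabp4, which macrophages also express. This sum, too, was highest in BAPN 4 and lowest in Vehicle 4. The other 4 tested adipocyte genes had fold changes below 0, and edgeR called 1, Plin1, lower, where DESeq2 called 4 of the 5 tested. Skeletal muscle markers, with Mb and Ckm at or near 0, had 2 of 7 tested, 0 called by edgeR and 1 by DESeq2, with 1 at an unadjusted p under 0.05 (sums from 16.3 to 30.2 and from 17.5 to 72.9 CPM). Schwann cell markers had 6 tested and 0 called by either tool, with 1 at an unadjusted p under 0.05 (sums from 98.4 to 288 and from 89.0 to 169.7 CPM), and erythroid markers 4 tested, with 0 called by either tool and 0 at an unadjusted p under 0.05 (sums from 719.8 to 1960.0 and from 856 to 2143 CPM). The part of these cells in the glycolytic genes was not tested.

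Some of the 10 genes have near-identical copies. The RefSeq gene table of GRCr8 names 9 pseudogenes of Aldoa, 8 of Pgk1, 31 of Eno1 and 30 of Ldha, and 0 of them stand under such a name in the files. How the counting treated reads shared with copies is not given in the sources used here, so the levels of these 4 genes are uncertain to that extent. Replicate libraries differed by more than counting noise (over the tested genes, chi-square divided by its degrees of freedom was 68.6 to 321 for pairs within a group), and each was counted as 1 replicate.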

How the data were processed

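Bulk RNA was sequenced from the outflow veins of 8 rats, and condition and replicate came from the sample titles. The authors deposited raw counts per Ensembl gene and library, made from stranded total RNA libraries after ribosomal RNA depletion. The submitters' notes name bcl2fastq 2.17, Trim Galore and STAR. The counter, strand setting and genome build are not given in the sources used here. Genes whose base mean (mean of DESeq2-scaled counts) reached 100 were tested with edgeR 4.0.16 (TMM, quasi-likelihood F test, treatment only) in R 4.3.3, with SEs from limma 3.58.1 (voom) and DESeq2 1.42.0 as an alternative. CPM was TMM-normalised, with a prior count of 2 on the log2 scale, and 0.5 was added to counts in ratios. The steps were tested on simulated counts. The 10 genes, the pathway and marker lists and the ratios were chosen with earlier results of these data known. Text names the called genes of each pathway list (up to 4 by FDR, or, with none called, the 2 of highest mean CPM), up to 3 markers of a list by mean CPM, and the 5 genes most like the mean of the 10. Some further genes were named after their values were seen. These were markers that were called, near 0 or unlike their sum, and the targets named by their differences within a sex. Hif1a was named beside Epas1 though not called. P-values measure the spread between these rats. Alternatives were other scalings and filters, a sex term, females alone, a replicate block, thinned counts and each library left out. Gapdh, Pgd and Pecam1 were not analysed here.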

Additional observations from a re-analysis of the deposited data

Results flagged for a closer look

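Among 40 sets of 4 rats examined (the 10 genes and the 10 ratios in each group), 2 held a rat that stood apart from the other 3 by Dixon's 95% criterion, which flags about 1 set in 20 by chance. Both were the male rat BAPN 4. Hk2 was at 277 CPM there, against 105 to 133 CPM in the other BAPN rats, and the gap to the nearest of them was 0.839 of the group's whole range. Pfkp was at 86.5 CPM, against 71.0 to 73.3 CPM, with a gap of 0.851 of the range. Without BAPN 4 the log2 fold change of Hk2 fell from 0.56 to 0.12 and that of Pfkp from 0.20 to 0.13, and neither was called with or without this rat.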

How the results depend on the processing

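Of the 10 genes, edgeR called 2 under TMM and upper-quartile scaling, 1 with RLE scaling, with filterByExpr, without a filter and with counts thinned to equal totals, 0 with total counts only, with sex as a covariate, with females alone and with the replicate block, while limma-voom called 1 and DESeq2 called 3. Over all genes, 3202 were called by DESeq2, 930 with sex as a covariate, 89 with females alone and 556 with the replicate block, against 1957. With total counts only, 504 genes were called higher and 1161 lower, against 876 and 1081. Leaving out 1 library gave 0 to 2 called among the 10 genes and 397 (without Vehicle 1) to 2215 (without Vehicle 2) over all genes. Of the genes' fold changes, 7 reversed with females alone: Slc2a1 -0.0896, Hk2 -0.319, Hk3 -0.0642, Pfkl -0.0844, Pfkp -0.0057, Aldoa -0.0258 and Slc16a3 -0.256. With females alone G6pc3 was at -0.0705 and Slc37a4 at -0.0608, and G6pc3 was at -0.0300 with total counts only and between -0.0499 (without Vehicle 4) and 0.0774 without 1 library. Hk1 was at 0.00671 with limma-voom, 0.00168 with filterByExpr, 0.0146 without a filter, 0.00434 with the replicate block, and between -0.152 and 0.0577 without 1 library, above 0 without BAPN 4, Vehicle 1 or Vehicle 4. The log2 ratio of Hk2 to Hk1 was -0.23 with females alone, that of Slc16a3 to Slc16a1 -0.53 with females alone, and without 1 library the ratio of Aldoa to Aldoc ran from -0.269 to 0.0391 (without Vehicle 2) and that of Slc16a3 to Slc16a1 from -0.224 (without Vehicle 4) to 0.404, and was -0.0543 without BAPN 4. The cause was not tested. Nothing in the labels pairs the rats by replicate number. Correlations of same-numbered deviations were 0.09, -0.26, 0.27 and -0.14, which cannot show whether rats were paired. The replicate block gave FDRs of 0.113 for Pgk1 and 0.127 for Ldha. It ended all 14 calls in the pathway lists, among them Slc2a4 (0.0538) and Pdha1 (0.0525). Pgk1 also lost its call with total counts only (0.0562) and sex as a covariate (0.0657), and Ldha with these and with RLE scaling (0.0514), limma-voom, filterByExpr, no filter and thinned counts. Of the counts of called genes in the 10 pathway lists, 114 stayed within 1.5 times the count given and 76 moved beyond it. The calls on Pgk1 and Ldha rest near the threshold.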
